A study of Mus musculus with 8 samples.

Results

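The genes described here encode membrane carriers for amino acids, small peptides, creatine, taurine, monoamines and monocarboxylates such as lactate, in intestinal epithelial cells of mice. Members were all genes whose symbol on the array begins with Slc1a, Slc3a, Slc6a, Slc7a, Slc15a, Slc16a, Slc36a, Slc38a or Slc43a followed by a number, and the brightest probe set with a single symbol stood for each gene. This rule found 55 members among 12393 genes: 15 of the Slc6 family, 13 of Slc7, 7 of Slc16, 6 each of Slc1 and Slc38, 5 of Slc15, 2 of Slc3, 1 of Slc43 and none of Slc36. No measured value entered the rule beyond the choice of probe set. The members and the gene lists used below were, however, chosen with earlier results of these data known.

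RNA of 4 groups was hybridised to 8 arrays, 2 per group, and all mice, wild type included, received tamoxifen by gavage on 5 days. Their background was mixed, of C57BL/6, 129Sv and FVB. The groups were wild type (WT), homozygotes for the IkkαAA/AA allele (IKKa-AA), β-catc.a. mice, whose intestinal epithelium carries β-catenin stabilised through tamoxifen (bCATca), and β-catc.a./IkkαAA/AA mice with both alterations (double mutants). The epithelium was harvested on day 15 from the start of dosing. The series uses the β-catenin mice as a model of the start of Wnt-driven tumours and asks what IKKα, a kinase of the NF-κB pathway, contributes. The AA allele replaces residues at which IKKα is activated and is carried by every cell of the mouse, whereas the β-catenin change is restricted to the epithelium. The promoter that drives the recombination, the segment of gut, the age and sex of the mice and any pooling of animals are not given in the sources used here.

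Dietary protein is taken up by the small intestine as amino acids and as di- and tripeptides. Enterocytes carry one set of transporters in the brush border, facing the lumen, and another in the basolateral membrane, through which amino acids pass to the blood. Several carriers are heterodimers of a light chain of the Slc7 family and a heavy chain, Slc3a1 or Slc3a2, that brings it to the membrane. Dividing cells depend on a partly different set, which takes up glutamine, serine and large neutral amino acids for growth. The monocarboxylate transporters of the Slc16 family move lactate, ketone bodies and short-chain fatty acids together with protons.

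Levels are given as log2 of the deposited intensity and changes as the difference between the log2 means of 2 groups, each with its standard error (SE) from the fitted model. Every group has n = 2 arrays. A gene is said to rise or fall where its p-value from limma, adjusted by the Benjamini-Hochberg method over all 12393 genes, was under 0.05. Levels of different genes come from different probes and are not compared. The labels do not state whether replicates came from separate animals, so the p-values measure only the spread between these samples, which may be technical. The background level given below assumes that the arrays of a group differ in sex. The replicates of that group would then come from different mice, which was not tested. In material of this kind, fewer cells of a type and less RNA per cell cannot be told apart.

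The mean log2 level of 10 epithelial markers lay between 11.30 and 11.54 across the arrays, and none was near background, as defined next, in all 4 groups. Among them Krt18 rose in bCATca against WT by 1.17 (adjusted p = 0.00304 by limma). The female transcript Xist was taken as absent on every array except that with its highest reading, and 3 Y chromosome genes as absent on that array. This rule assumes that the array differs in sex from its replicate and from the other groups. It picks an array whatever the readings are, so it does not show such a difference. The part of sex in the results was not tested. The readings of sex chromosome genes on arrays taken to lack their transcript reached 4.03, and levels up to that value are called near background here. By that measure 21 of the 55 members were near background in all 4 groups, 31 were above it in every group and 3 in some. The replicates of IKKa-AA differed most, with an SD of 0.431 for their difference over all genes, against 0.292 in WT, 0.304 in double mutants and 0.336 in bCATca. Counts of members in the comparisons that use the IKKa-AA arrays are therefore given with each of them left out as well.

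With stabilised β-catenin, several transporters of the absorptive cell fell and some that supply dividing cells rose. In bCATca against WT, 18 of the 55 members (32.7%) passed the test, 6 higher and 12 lower, where 9.29% of all genes passed, 5.74% higher and 3.55% lower. The median change was -0.2 over the members and 0.01 over all genes. All 18 were among the 34 members above background in at least 1 group. Among genes with a mean log2 level of at least 5 over the arrays, 17 of 29 members passed, beside 13.6% of all such genes. By family, 3 of 6 Slc1 members rose and 1 fell, 2 of 6 Slc38 members rose and 1 fell, and 1 of 13 Slc7 members rose and 1 fell. None of the 15 Slc6 members rose and 5 fell, both Slc3 members fell, and 1 each of the Slc15 and Slc16 members fell. Differences between families were not tested.

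**Figure D1:**
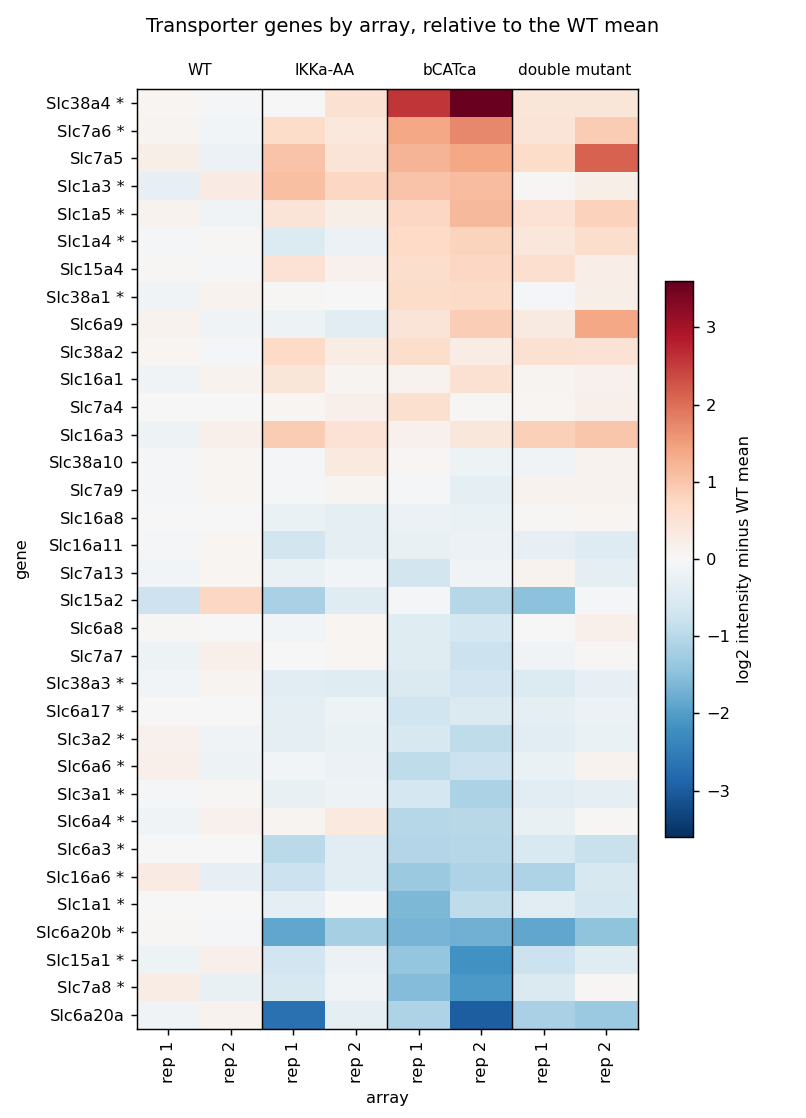
Log2 intensity of the 34 members above background in at least 1 group, minus the mean of the WT arrays, on each of the 8 arrays (columns, grouped by genotype). Rows are ordered by the change in bCATca against WT, red is above and blue below the WT mean, and an asterisk marks the 18 members past the test in that comparison. The bCATca columns hold the strongest colours at both ends, up to 3.57 for Slc38a4 and down to -2.98 for Slc6a20a, which did not pass and reached -2.68 on an IKKa-AA array.

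Promoters are shown for 3 of the changed members, because these genes moved in opposite directions and the sequences show what letters lie next to their starts. Sequences are from RefSeq (GRCm38.p6), run from 250 bases before to 50 after the start of transcription on the strand of the gene, and were matched for 37 of the 55 members (56 promoters). Slc38a4 (chr15:97055907-97056206, minus strand, the most upstream of its 3 starts) rose with stabilised β-catenin, Slc3a1 (chr17:85028097-85028396, plus strand) fell, and Slc1a4 (chr11:20332664-20332963, minus strand) rose. Capitals mark matches to the motifs searched, on either strand.
Slc38a4: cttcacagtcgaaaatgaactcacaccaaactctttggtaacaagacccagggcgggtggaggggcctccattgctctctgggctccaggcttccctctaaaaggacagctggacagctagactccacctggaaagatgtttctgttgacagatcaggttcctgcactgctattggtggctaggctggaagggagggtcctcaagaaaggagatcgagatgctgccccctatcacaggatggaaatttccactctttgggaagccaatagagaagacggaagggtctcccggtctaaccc
Slc3a1: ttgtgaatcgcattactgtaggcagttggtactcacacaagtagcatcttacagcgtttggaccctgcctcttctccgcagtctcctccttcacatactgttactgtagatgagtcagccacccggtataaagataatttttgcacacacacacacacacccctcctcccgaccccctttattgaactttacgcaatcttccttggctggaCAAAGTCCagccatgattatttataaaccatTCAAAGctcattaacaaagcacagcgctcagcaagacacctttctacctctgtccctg
Slc1a4: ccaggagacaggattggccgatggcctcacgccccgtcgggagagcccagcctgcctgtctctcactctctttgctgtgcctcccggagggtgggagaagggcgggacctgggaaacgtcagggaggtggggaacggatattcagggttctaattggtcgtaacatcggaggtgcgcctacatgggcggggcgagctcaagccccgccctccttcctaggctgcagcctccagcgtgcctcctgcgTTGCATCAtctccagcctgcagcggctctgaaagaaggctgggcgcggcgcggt
The capitals in Slc3a1 are CAAAGTCC, a form of the site of HNF4 factors, from base -39, and TCAAAG, the reverse complement of the core letters CTTTGA bound by TCF/LEF factors, partners of β-catenin, from base -8. The capitals in Slc1a4 are TTGCATCA, the reverse complement of TGATGCAA, a composite site of ATF4 and C/EBP factors, from base -4. The promoter of Slc38a4 held none of the motifs searched.

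The TCF/LEF core was found in 9 of 56 member promoters (16.1%) and in 16% of all 32851 RefSeq promoters. Among the members that passed in bCATca against WT it was in none of the 7 promoters of 4 genes that rose and in 3 of the 10 promoters of 9 genes that fell (Slc3a1, Slc3a2 and Slc6a4). The ATF4-C/EBP letters were in 4 member promoters (7.14%), of Slc1a4, Slc7a11 and Slc7a7, and in 0.895% of all promoters. The 2 promoters of Slc7a7 among these overlap and hold the same site, which is therefore counted in both. CAAAGTCC was found in Slc3a1 alone among the members (1.79%, against 1.42% of all promoters), and the E-box CACGTG in 4 (7.14%, against 7.15%), of Slc16a1, Slc1a6, Slc38a5 and Slc6a3. Neither the CDX2 core TTTATGG nor the HNF1 site was found in a member promoter, beside 2.75% and 0.399% of all promoters. Only these windows were searched, and the motifs do not overlap one another in the sequences shown.

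Of the 9 measured carriers of luminal uptake, 5 fell in bCATca against WT and none rose, beside 3.55% and 5.74% of all genes, with a median change of -0.88. Slc15a1 (PepT1), the proton-coupled peptide transporter of the brush border, read 9.36 and 9.73 for WT, 8.14 and 7.37 for bCATca, 8.85 and 9.34 for IKKa-AA, and 8.78 and 9.09 for double mutants. Both bCATca arrays lay below all others. The fall was -1.79 (SE 0.28, adjusted p = 0.00942). Slc1a1 (EAAT3), which takes up glutamate and aspartate, read 7.60 and 7.56 for WT, 7.25 and 7.57 for IKKa-AA, 5.96 and 6.66 for bCATca, and 7.17 and 6.94 for double mutants. It fell by 1.27 (SE 0.23, adjusted p = 0.0168), and the bCATca arrays were again the lowest. Its other probe sets gave -1.53 and -1.43.

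Slc3a1 (rBAT), the heavy chain of the brush border carrier of cystine and basic amino acids, fell while its partner did not pass. Slc3a1, whose promoter is shown above, read 10.12 and 10.19 for WT, 9.88 and 9.98 for IKKa-AA, 9.54 and 9.01 for bCATca, and 9.78 and 9.84 for double mutants. The change in bCATca was -0.88 (SE 0.18, adjusted p = 0.0248), with both arrays below those of every other group. Slc7a9, the light chain of the same carrier, read between 11.46 and 11.96 on the 8 arrays, and its change of -0.20 had an interval from -0.56 to 0.15 (95%, adjusted p = 0.405). The difference between the changes of the 2 chains was not tested. Mutations of either gene cause cystinuria in people.

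The proline carriers Slc6a20a and Slc6a20b lie next to each other on chromosome 9 and are related in sequence, and whether the probe sets tell their transcripts apart was not tested. Slc6a20b read 5.71 and 5.62 for WT and between 3.78 and 4.47 on the 6 arrays of the altered groups. No array of these groups reached WT. Both bCATca arrays, at 4.00 and 3.94, were near background, and the level fell by 1.70 (SE 0.23, adjusted p = 0.0055), which stands for a level at least 3.1-fold lower when background is taken as their level. Slc6a20a read 10.58 and 10.86 for WT, 8.04 and 10.41 for IKKa-AA, 9.62 and 7.74 for bCATca, and 9.56 and 9.38 for double mutants. The replicates of IKKa-AA and of bCATca lay far apart, and the change of -2.04 in bCATca (SE 0.76) did not pass (adjusted p = 0.118, and 0.0267 without the IKKa-AA arrays).

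Slc6a6, the carrier of taurine, which is used to conjugate bile acids and as an osmolyte, read 9.48 and 9.14 for WT, 9.20 and 9.10 for IKKa-AA, 8.41 and 8.54 for bCATca, and 9.07 and 9.44 for double mutants. It fell by 0.83 in bCATca (SE 0.18, adjusted p = 0.0288). Its 2 dimmer probe sets gave 0.00 and -0.14, and the mean over its probe sets did not pass (adjusted p = 0.242). The other measured carriers of the list, Slc6a14 and Slc6a18, were near background in all groups, with changes of -0.31 and -0.52. Slc6a18 passed without the IKKa-AA arrays (adjusted p = 0.0391). Slc6a19 and Slc36a1 are not analysed here.

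Enterocyte markers that are no members also had their lowest group mean in bCATca. Only bCATca replicate 2 stood apart below the other groups, as replicate 1 equalled double mutant replicate 1. For the list of luminal uptake both bCATca arrays lay below all others. The mean log2 of 9 such genes was 12.85 and 12.87 for WT, 12.25 and 12.80 for IKKa-AA, 12.20 and 11.35 for bCATca, and 12.20 and 12.36 for double mutants. In bCATca against WT 3 of the 9 fell, beside 3.55% of all genes. These were Apoc3 (adjusted p = 0.0152), Fabp2 (0.0492) and Mttp (0.0498). Apoc3 lost its call without either WT array (up to 0.0909), and Fabp2 and Mttp in 5 of the 8 fits with an array left out (up to 0.245 and 0.249). The list of luminal uptake had means of 7.92 and 7.95 for WT, 7.23 and 7.74 for IKKa-AA, 7.02 and 6.73 for bCATca, and 7.36 and 7.47 for double mutants. The part of enterocyte number in the result was not tested.

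Leaving out single arrays ended some of these calls in bCATca against WT. Slc15a1 lost its call without WT replicate 2 (adjusted p = 0.0807) and without bCATca replicate 2 (0.0564), and Slc1a1 without WT replicate 1 (0.0924) and WT replicate 2 (0.102). Slc3a1 lost it without either WT array (0.104 and 0.149), bCATca replicate 2 (0.124) or either double mutant array (0.0516). Slc6a6 lost it without any 1 of the 4 arrays of WT and bCATca (0.0722 to 0.146) and with replicate number as a block (0.0546). Slc6a20b kept its call in all 8 such fits, with a largest adjusted p of 0.0491.

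Of the 4 measured carriers of basolateral exit and exchange, 2 fell and 1 rose in bCATca against WT (all genes 3.55% and 5.74%). Slc7a8 (LAT2), a light chain that exchanges neutral amino acids at the basolateral membrane, read 9.30 and 8.77 for WT, 8.47 and 8.91 for IKKa-AA, 7.48 and 6.98 for bCATca, and 8.53 and 9.09 for double mutants. It fell by 1.81 (SE 0.28, adjusted p = 0.00882), and the bCATca arrays stood apart below all others. Slc3a2 (4F2hc or CD98), the heavy chain that Slc7a5, Slc7a6, Slc7a7 and Slc7a8 share, read 11.29 and 11.00 for WT, 10.80 and 10.89 for IKKa-AA, 10.56 and 10.23 for bCATca, and 10.77 and 10.91 for double mutants. It fell by 0.75 (SE 0.17, adjusted p = 0.0327).

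The light chains of Slc3a2 did not move in one direction. Slc7a6 (y+LAT2), which exchanges basic for neutral amino acids in many cell types, read 5.31 and 5.10 for WT, 5.87 and 5.59 for IKKa-AA, 6.60 and 6.93 for bCATca, and 5.66 and 6.13 for double mutants. It rose by 1.56 (SE 0.21, adjusted p = 0.00458), its second probe set rose by 1.07, and both bCATca arrays lay above all others. Slc7a7 (y+LAT1), the intestinal relative that is mutated in lysinuric protein intolerance, read 10.34 and 10.71 for WT, 10.51 and 10.60 for IKKa-AA, 10.09 and 9.75 for bCATca, and 10.39 and 10.57 for double mutants. Its change of -0.60 did not pass (SE 0.18, adjusted p = 0.0724).

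Slc7a6 kept its call with each of the 8 arrays left out, with a largest adjusted p of 0.0482. Slc7a8 lost its call without WT replicate 1 (adjusted p = 0.0679) and without bCATca replicate 2 (0.0716). Slc3a2 lost it without either WT array (0.156 and 0.0913), bCATca replicate 2 (0.188) or either double mutant array (0.0578), and with replicate number as a block (0.0552). Slc16a10 and Slc43a2 are not analysed here.

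**Figure D2:**
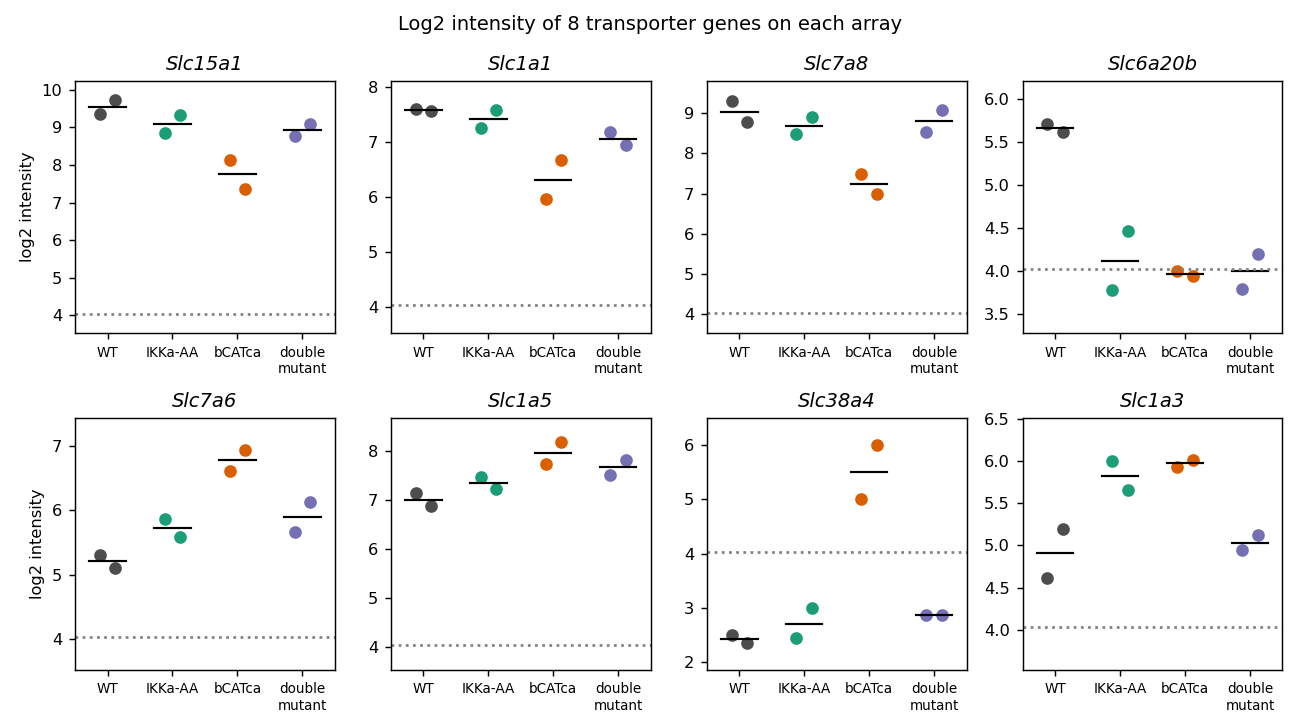
Log2 intensity of 8 members on each array (points) with the group mean (bars), 2 arrays per group, with the y axis scaled separately for each gene. The dotted line marks the background level of 4.03. The bCATca arrays lie below all others for Slc15a1, Slc1a1 and Slc7a8 and above all others for Slc7a6 and Slc38a4, whereas Slc6a20b is lower than WT in each altered group and the group means of Slc1a3 are 5.82 in IKKa-AA and 5.97 in bCATca.

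Of the 10 measured carriers that supply growing cells, 3 rose and 1 fell in bCATca against WT (all genes 5.74% and 3.55%), with a median change of 0.56. Slc1a5 (ASCT2), a sodium-dependent exchanger that takes up glutamine, read 7.14 and 6.88 for WT, 7.48 and 7.23 for IKKa-AA, 7.75 and 8.19 for bCATca, and 7.52 and 7.83 for double mutants. It rose by 0.96 (SE 0.20, adjusted p = 0.0266), with the ranges of bCATca and double mutants overlapping. Slc1a4 (ASCT1), a related exchanger of serine, alanine and cysteine, read 5.24 and 5.35 for WT, 4.82 and 5.10 for IKKa-AA, 6.02 and 6.11 for bCATca, and 5.71 and 5.94 for double mutants. It rose by 0.77 (SE 0.16, adjusted p = 0.0228). Its other probe sets gave 0.34 and 0.95, and the mean over all its probe sets did not pass (adjusted p = 0.109).

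Slc38a1 (SNAT1), a sodium-coupled glutamine carrier, read 6.08 and 6.36 for WT, 6.27 and 6.22 for IKKa-AA, 6.87 and 6.92 for bCATca, and 6.14 and 6.44 for double mutants. It rose by 0.68 (SE 0.16, adjusted p = 0.0378), and the other groups overlapped one another. Its call was lost when the arrays were scaled by quantiles (adjusted p = 0.0602) or by cyclic loess (0.0546). The member of the list that fell was Slc3a2, described above.

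Slc7a5 (LAT1), the light chain that brings leucine and other large neutral amino acids into growing cells, read 6.15 and 5.73 for WT, 6.96 and 6.41 for IKKa-AA, 7.17 and 7.33 for bCATca, and 6.59 and 8.07 for double mutants. Every array of the altered groups exceeded both WT arrays, but the double mutant replicates lay far apart and the change of 1.31 in bCATca did not pass (SE 0.42, adjusted p = 0.0856). Without either double mutant array it passed (adjusted p = 0.0304). Slc38a2 (SNAT2), which is induced in cells short of amino acids, had a change of 0.45 (SE 0.19, adjusted p = 0.162), with 8.56 and 8.40 for WT, 9.20 and 8.74 for IKKa-AA, 9.11 and 8.75 for bCATca, and 9.02 and 9.01 for double mutants. Slc6a9 (GlyT1), a glycine carrier, read 7.10 and 6.85 for WT, 6.80 and 6.55 for IKKa-AA, 7.44 and 7.85 for bCATca, and 7.29 and 8.37 for double mutants, and its change of 0.67 did not pass (SE 0.32, adjusted p = 0.2). Slc7a1, Slc7a11 and Slc38a5, which carry basic amino acids, cystine and glutamine, were near background in every group, with changes of -0.13, -0.27 and -0.15.

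The calls of this list also depended on single arrays. Slc1a5 lost its call without WT replicate 1 (adjusted p = 0.0835), WT replicate 2 (0.173) or bCATca replicate 2 (0.157) and with replicate number as a block (0.0505). Slc1a4 lost it without any 1 of the arrays of WT (0.118 and 0.108) and bCATca (0.0594 and 0.131), and Slc38a1 likewise (0.173, 0.0974, 0.0945 and 0.175) and with the block (0.0533). The mean log2 of the list was 6.16 and 5.96 for WT, 6.12 and 5.99 for IKKa-AA, 6.38 and 6.44 for bCATca, and 6.28 and 6.53 for double mutants. Crypt and stem cell markers were also above WT in bCATca, but differed from the list in double mutants. The median change in double mutants against bCATca was 0.08 for the list and -0.9 for these markers. The mean log2 of 8 of them was 7.06 and 7.08 for WT, 7.31 and 7.61 for IKKa-AA, 8.69 and 8.41 for bCATca, and 7.5 and 7.9 for double mutants. Of these 8, 4 rose in bCATca against WT (Axin2, Cd44, Prom1 and Ascl2), beside 5.74% of all genes. Ascl2 lost its call without WT replicate 2. The part of crypt cell number in the result was not tested.

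Slc38a4 had the largest fitted change among the members, measured from a WT level below background. It encodes SNAT4, a sodium-coupled carrier of neutral amino acids best known from liver and placenta and an imprinted gene of the mouse. It read 2.50 and 2.36 for WT, 2.44 and 2.99 for IKKa-AA, 5.01 and 6.00 for bCATca, and 2.86 and 2.87 for double mutants. Only the bCATca arrays were above background, and the rise of 3.08 (SE 0.31, adjusted p = 0.00146) stands for a level at least 2.78-fold higher when WT is taken at background. That bound, 1.47 on the log2 scale, is smaller than the changes of Slc7a8 and Slc15a1, and with 16 added to each intensity the change was 1.54. The second probe set of the gene rose by 2.73. The call stood with each of the 8 arrays left out, with a largest adjusted p of 0.0192. Slc38a4 lies beside Slc38a2 and Slc38a1 on chromosome 15, in that order with no other protein-coding gene between, and their changes in bCATca were 3.08, 0.45 and 0.68. Slc38a3 (SNAT3), a glutamine carrier of liver and kidney, read 6.07 and 6.26 for WT, 5.76 and 5.72 for IKKa-AA, 5.64 and 5.48 for bCATca, and 5.67 and 5.87 for double mutants. It fell by 0.61 (SE 0.15, adjusted p = 0.0399) and kept its call only without 1 of the IKKa-AA arrays, with the other 6 fits at 0.0577 to 0.226.

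Of the 13 measured carriers of transmitters and osmolytes, 1 rose and 3 fell in bCATca against WT, with a median change of -0.27. Of all genes 5.74% rose, which 1 of 13 is near, and 3.55% fell. Slc1a3 (GLAST), a glutamate carrier best known from astrocytes, read 4.61 and 5.20 for WT, 6.00 and 5.65 for IKKa-AA, 5.93 and 6.01 for bCATca, and 4.95 and 5.12 for double mutants. It rose by 1.06 (SE 0.21, adjusted p = 0.0221), and the double mutant arrays lay within the range of WT. Its other probe sets gave 0.47 and 1.03. Slc6a4, the serotonin transporter, which clears serotonin released in the gut wall, read 8.53 and 8.82 for WT, 8.78 and 9.01 for IKKa-AA, 7.64 and 7.66 for bCATca, and 8.40 and 8.72 for double mutants. It fell by 1.02 (SE 0.17, adjusted p = 0.0122), with both bCATca arrays below all others.

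Slc6a17, a carrier of neutral amino acids in synaptic vesicles, read 6.26 and 6.27 for WT, 5.94 and 6.08 for IKKa-AA, 5.54 and 5.76 for bCATca, and 5.96 and 6.05 for double mutants, a fall of 0.62 (SE 0.14, adjusted p = 0.0344). Slc6a3, the dopamine transporter, read 4.11 and 4.13 for WT and between 3.07 and 3.75 on the other 6 arrays. Its WT level was barely above background and all other readings were near background, so the fitted fall of 1.03 (SE 0.21, adjusted p = 0.0219) stands for a level at least 1.06-fold lower in bCATca. Slc6a8, the creatine carrier, read 11.09 and 11.04 for WT, 10.95 and 11.12 for IKKa-AA, 10.62 and 10.43 for bCATca, and 11.06 and 11.24 for double mutants. Its change of -0.54 did not pass (SE 0.15, adjusted p = 0.0538), and the second probe set gave -0.70. Without the IKKa-AA arrays Slc6a8 passed (adjusted p = 0.0463). Of the list, 7 members were near background in every group, the brain carriers Slc1a2 and Slc6a5 among them.

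Single arrays again decided calls. Slc1a3 lost its call without WT replicate 1 (adjusted p = 0.109), bCATca replicate 1 (0.0635) or bCATca replicate 2 (0.124), and Slc6a4 without WT replicate 2 (0.0997) or bCATca replicate 2 (0.0781). Slc6a3 lost it without any 1 of the arrays of WT and bCATca (0.0723 to 0.13). Slc6a17 lost it without any 1 of those (0.0935 to 0.17), without either double mutant array (0.056) and with the replicate block (0.0527).

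Of the 7 measured members of the Slc16 family, 1 fell in bCATca against WT and none rose, beside 3.55% and 5.74% of all genes. Slc16a6 (MCT7), which exports ketone bodies from the liver of zebrafish, read 9.88 and 9.30 for WT, 8.82 and 9.17 for IKKa-AA, 8.26 and 8.48 for bCATca, and 8.48 and 9.0 for double mutants. It fell by 1.22 (SE 0.25, adjusted p = 0.0238), and the call was lost without WT replicate 1 (0.122), bCATca replicate 1 (0.0876) or bCATca replicate 2 (0.0966). Slc16a1 (MCT1), which moves lactate and butyrate, read 10.03 and 10.29 for WT, 10.60 and 10.26 for IKKa-AA, 10.29 and 10.72 for bCATca, and 10.27 and 10.32 for double mutants, and none of its comparisons passed. The change in bCATca was 0.35 with an interval from -0.10 to 0.79 (adjusted p = 0.266). Slc16a3 (MCT4), known for lactate export from glycolytic cells, read 6.01 and 6.37 for WT, 7.11 and 6.71 for IKKa-AA, 6.35 and 6.60 for bCATca, and 7.04 and 7.19 for double mutants. All arrays with the AA allele lay above all arrays without it.

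Among the remaining members, Slc15a4, a lysosomal carrier of histidine and peptides, read 5.48 and 5.38 for WT, 5.96 and 5.58 for IKKa-AA, 6.05 and 6.18 for bCATca, and 6.04 and 5.67 for double mutants. Its change of 0.68 in bCATca did not pass (SE 0.18, adjusted p = 0.0547), and did without the IKKa-AA arrays (0.0312). Slc7a4 did not pass by its brightest probe set, with a change of 0.31, whereas its second probe set rose by 1.12 (adjusted p = 0.00808 over all probe sets) and the dimmest gave 0.09. Slc15a2 (PepT2), the peptide carrier of the kidney, differed between the WT arrays, at 5.13 and 6.63, and its change of -0.54 had an SE of 0.60.

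Of the 18 calls in bCATca against WT, 5 remained when WT replicate 1 was left out, 6 when WT replicate 2 was, 10 and 4 when bCATca replicate 1 or 2 was, and 14 when either double mutant array was. The corresponding shares of all genes that passed were 2.2%, 1.96%, 5.84%, 1.80% and 5.64%. Without either IKKa-AA array all 18 remained and 22 members passed, beside 15.2% of all genes. With replicate number as a block 12 remained, beside 5.66% of all genes.

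The AA allele alone changed no member past the test. In IKKa-AA against WT, 0 of 55 members passed by limma, where 0.00807% of all genes did, and 10 members (18.2%) had an unadjusted p under 0.05, as did 11.7% of all genes. The members with the smallest p were Slc6a20b, at -1.54 (SE 0.23, adjusted p = 0.147), Slc1a3, at 0.92 (SE 0.21, adjusted p = 0.306), and Slc16a3, at 0.72 (SE 0.20, adjusted p = 0.311), and for each both IKKa-AA arrays lay outside the range of WT. Without IKKa-AA replicate 2 the change of Slc6a20b was -1.89 (adjusted p = 0.00691) and Slc6a3 also passed (-0.98, adjusted p = 0.035), beside 2.62% of all genes. Without IKKa-AA replicate 1 Slc6a20b stood at -1.19 (adjusted p = 0.337), and 0 members passed, beside 0.00807% of all genes. Without IKKa-AA replicates 1 and 2 in turn, Slc1a3 stood at 0.74 (adjusted p = 0.835) and 1.09 (0.0611), and Slc16a3 at 0.51 (0.88) and 0.92 (0.0672).

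In double mutants against WT, 1 of 55 members passed, Slc6a20b, and it fell, where 1.44% of all genes passed and 0.46% fell, and 16 members (29.1%) had an unadjusted p under 0.05, beside 16.9% of all genes. The fall was -1.67 (SE 0.23, adjusted p = 0.0211), and the double mutant arrays read 3.79 and 4.20 against 5.71 and 5.62. The first of these was near background, and with it taken at background the level was at least 2.92-fold lower (1.55 on the log2 scale). The call was lost without WT replicate 1 (0.157), WT replicate 2 (0.114), double mutant replicate 1 (0.167) or double mutant replicate 2 (0.136), and with 16 added to each intensity (0.054). Slc16a3, at 0.92 (SE 0.20), did not pass (adjusted p = 0.0649). Without the IKKa-AA arrays it did (0.0212), as did Slc6a3, at -0.68 (0.0385), while 5.33% of all genes passed.

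The comparisons against WT share the WT arrays, so their values are given side by side only. Slc7a8 stood at -1.81 in bCATca, -0.34 in IKKa-AA and -0.22 in double mutants. Slc15a1 stood at -1.79, -0.45 and -0.61, Slc6a4 at -1.02, 0.22 and -0.11, and Slc38a4 at 3.08, 0.28 and 0.44, the last 2 between groups near background. For Slc1a5 the values were 0.96, 0.35 and 0.66, and for Slc1a4 0.77, -0.34 and 0.53.

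**Figure D3:**
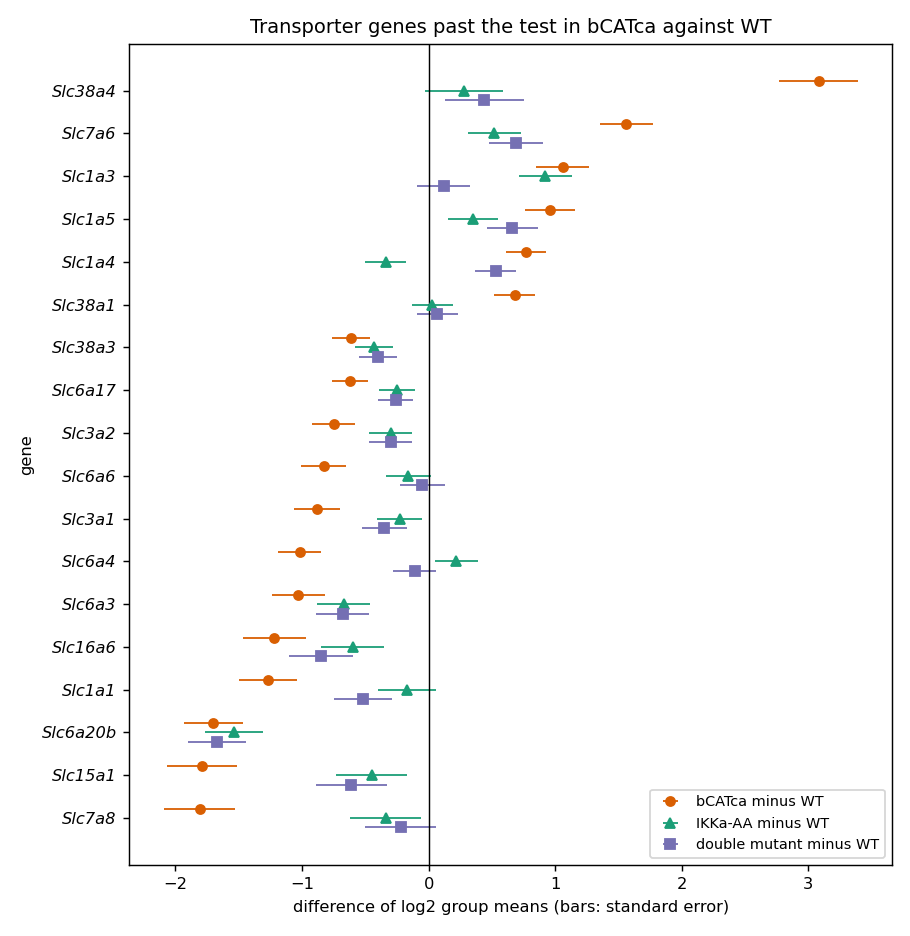
Difference of the log2 group means from WT (x axis) with the standard error of the model (bars) for the 18 members past the test in bCATca against WT, in bCATca (circles), IKKa-AA (triangles) and double mutants (squares), 2 arrays per group. All 3 differences share the WT arrays. The circles lie farthest from 0 for each gene, which the choice of genes by that same comparison favours. For Slc6a20b the 3 symbols lie between -1.7 and -1.54.

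In double mutants against bCATca, which asks what the AA allele changes once β-catenin is stabilised, 2 of 55 members passed, 1 higher and 1 lower, where 1.21% of all genes passed, 0.403% higher and 0.807% lower. Slc7a8 was higher by 1.58 (SE 0.28, adjusted p = 0.0427), with the double mutant arrays at 8.53 and 9.09 and those of bCATca at 7.48 and 6.98. Slc38a4 was lower by 2.64 (SE 0.31, adjusted p = 0.0153), with both double mutant arrays near background, so that the level was at least 2.78-fold lower. A further 13 members had an unadjusted p under 0.05 (15 of 55 in all, 27.3%, beside 14.8% of all genes). The closest to the threshold was Slc6a4, at 0.91 (SE 0.17, adjusted p = 0.0523), followed by Slc1a3, at -0.94 (SE 0.21, adjusted p = 0.084).

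These calls also rested on few arrays. Slc38a4 lost its call without double mutant replicate 1 (adjusted p = 0.112) or replicate 2 (0.0975) and with 16 added to each intensity (0.0553). Slc7a8 lost it without any 1 of the 6 arrays outside IKKa-AA (0.0702 to 0.23), with the replicate block (0.0825), with 16 added (0.0811), among genes with a mean of at least 5 (0.0515) and with p-values adjusted over all probe sets (0.0511). Without the IKKa-AA arrays 5 members passed, Slc15a1 (1.18, adjusted p = 0.049), Slc6a4 (0.91, 0.0266) and Slc1a3 (-0.94, 0.0457) among them, beside 3.19% of all genes.

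In double mutants against IKKa-AA, 0 of 55 members passed by limma, where 0.0565% of all genes did, and 4 (7.27%) had an unadjusted p under 0.05, beside 6.93% of all genes. The smallest p-values belonged to Slc1a4, at 0.87 (SE 0.16, adjusted p = 0.265), Slc1a3, at -0.79 (SE 0.21, adjusted p = 0.471), and Slc6a9, at 1.15 (SE 0.32, adjusted p = 0.504). Without double mutant replicate 2 the value for Slc6a9 was 0.61. Leaving out IKKa-AA replicate 1 or 2 also gave 0 members, beside 1.28% and 0.0403% of all genes, with Slc1a4 at 0.73 (adjusted p = 0.147) and 1.00 (0.231).

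The interaction, the effect of stabilised β-catenin in mice with the AA allele minus that in mice without it, passed for 0 of 55 members by limma, where 0.0888% of all genes passed. An unadjusted p under 0.05 was reached by 19 members (34.5%), beside 15.7% of all genes, and the median was 0.31 over the members and 0.00 over all genes. The smallest adjusted p-values were those of Slc38a4, fitted at -2.93 (SE 0.43, adjusted p = 0.0509), Slc1a3, at -1.86 (SE 0.30, adjusted p = 0.0537), and Slc7a8, at 1.93 (SE 0.39, adjusted p = 0.0962). For Slc38a4 every group but bCATca was near background, so the size of its interaction was not measured. Without IKKa-AA replicate 2, 5 members passed, namely Slc1a3 (0.0266), Slc38a4 (0.0294), Slc7a8 (0.042), Slc6a20b (0.0204) and Slc6a3 (0.0339), beside 1.89% of all genes, and without IKKa-AA replicate 1 Slc38a4 passed (0.0261), beside 0.686%.

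Peptidases, which release the substrates of these carriers, were read as a related list of 14 genes that are no members. In bCATca against WT 8 of 14 fell and none rose, beside 3.55% of all genes lower and 5.74% higher, with a median change of -1.09. Mme (neprilysin), at -2.16 (adjusted p = 0.0147), Ace, at -1.82 (0.0278), and the dipeptidases Pepd, at -1.38 (0.0386), and Cndp2, at -1.25 (0.00664), had the largest changes. Without WT replicate 2 the adjusted p was 0.0983 for Mme and 0.192 for Pepd, without bCATca replicate 2 it was 0.167 for Ace, and without WT replicate 1 it was 0.06 for Cndp2. Enpep (aminopeptidase A) alone of the 14 differed in double mutants against bCATca, higher by 1.02 (adjusted p = 0.0203), a call lost without any 1 of the 6 arrays outside IKKa-AA (up to 0.128).

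Of 22 measured genes of the amino acid deprivation response, targets of the factor ATF4, 4 rose and 2 fell in bCATca against WT, where 5.74% of all genes rose and 3.55% fell, with a median change of 0.57. The stress regulator Nupr1 rose by 1.34 (adjusted p = 0.00978) and the tRNA synthetase genes Gars and Wars by 1.04 (0.0358) and 0.94 (0.0302), and Phgdh, of serine synthesis, also rose by 0.94 (0.00671). Cth, which makes cysteine, fell by 1.26 (0.00374) and kept its call with each of the 8 arrays left out. Without bCATca replicate 2 the adjusted p was 0.0801 for Nupr1 and 0.175 for Wars, and without WT replicate 2 it was 0.202 for Gars and 0.0653 for Phgdh. Nupr1, at 1.17 (0.0434), and the synthetase gene Aars, at 1.02 (0.0487), rose in double mutants against WT. Trib3, at 0.97 (0.0345), and Cth, at 0.99 (0.0312), were higher in double mutants than in bCATca. All 4 of these calls were lost without any 1 of the 6 arrays outside IKKa-AA (up to 0.265 for Aars).

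Among 13 measured enzymes of glutamine and glutamate metabolism, 1 rose and 4 fell in bCATca against WT, with a median change of -0.16. The 1 that rose is near the share of all genes that did (5.74%), and 3.55% of all genes fell. Those that fell were Otc, at -1.52 (adjusted p = 0.00157), and Arg2, at -1.27 (0.0283), both of arginine and citrulline metabolism, Glud1, at -1.22 (0.0188), and Gpt, at -1.13 (0.0298). The gene that rose was Glul, glutamine synthetase, at 1.07 (0.0188), a call lost without either WT array or bCATca replicate 2 (up to 0.137). Otc kept its call with each of the 8 arrays left out. Arg2 and Gpt lost theirs without either WT array, bCATca replicate 2 or either double mutant array. Glud1 lost its call without WT replicate 1 or either bCATca array. Otc was higher in double mutants than in bCATca by 0.89 (0.0408), a call lost without any 1 of the 6 arrays outside IKKa-AA (up to 0.223).

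The remaining lists of the pathway held few calls. None of 7 measured genes of lactate and ketone metabolism passed in any comparison, the smallest p in bCATca against WT being that of Pdk4, at -3.04 (SE 1.02, adjusted p = 0.0941). Of 14 genes of lysosomal amino acid sensing, 1 fell in bCATca against WT, which is near the share of all genes that fell (3.55%). This was Sesn2, a leucine sensor, at -0.69 (adjusted p = 0.0466 by limma), a call lost without any 1 array outside IKKa-AA. Sesn2 is also 1 of the 2 genes that fell among the ATF4 targets above. Among the partner proteins, Emb (embigin), which accompanies monocarboxylate carriers to the membrane, was lower in double mutants than in bCATca by 1.56 (adjusted p = 0.0382, and 0.223 without double mutant replicate 1), with 3 of the 4 listed partners measured.

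Markers of other cell types also differed between the groups. The mean log2 of 7 T cell markers was 7.43 and 7.0 for WT, 5.55 and 7.17 for IKKa-AA, 6.67 and 6.18 for bCATca, and 4.52 and 4.68 for double mutants, and 1 of them, Cd2, was near background throughout. That of 5 B and plasma cell markers was 6.12 and 6.18, 4.99 and 6.76, 6.85 and 6.88, and 4.12 and 4.16 in the same order. The T cell and B cell lists were lowest in double mutants, so they moved with every comparison of that group, and IKKa-AA replicate 1 lay below replicate 2 in both. In double mutants against WT 4 of the 7 T cell markers fell, beside 0.46% of all genes: Cd3d (-3.28), Cd3g (-4.49), Cd8a (-4.15) and Ptprc (-3.36). Igha (-5.96) and Ms4a1 (-1.14), 2 of the 5 B and plasma cell markers, were lower in double mutants than in bCATca, beside 0.807% of all genes. Each of these calls was lost without either double mutant array. Myeloid markers ranged from 4.98 to 5.70, stromal markers from 4.30 to 4.72 and endothelial markers from 3.51 to 3.91 on the 8 arrays. The stromal genes Col1a1, Lum and Pdgfra and the endothelial genes Pecam1 and Emcn were near background in every group. Within these lists the myeloid gene Cd14 rose in bCATca against WT by 1.32 (adjusted p = 0.00507, and 0.0503 without bCATca replicate 2), Vim rose by 1.2 (0.0365, up to 0.166 with an array left out) and Des fell by 0.73 (0.0446, up to 0.244). Pancreatic acinar markers (3 measured) stood at 7.02 on double mutant replicate 1 and between 5.71 and 6.04 on the other arrays. The part of these cells in the transporter results was not tested.

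Of the measured markers of the colonic region, only Car4 was above background in any group. The mean log2 of the 3 measured of 6 listed was 5.63 and 5.64 for WT, 5.28 and 5.31 for IKKa-AA, 4.56 and 4.81 for bCATca, and 5.54 and 5.32 for double mutants, with Car1 and Hoxb13 near background in every group. Car4, a carbonic anhydrase, fell in bCATca against WT by 1.93 (adjusted p = 0.00171, at most 0.0212 with an array left out) and was higher in double mutants than in bCATca by 1.65 (0.0153, and 0.113 without double mutant replicate 2). Car1 fell by 0.77 in bCATca against WT (0.0317), a call lost without WT replicate 1. As all its group means were near background, the size of this fall was not measured. The 4 measured markers of the small intestinal region had a mean between 5.59 and 5.78 on the 8 arrays, with Fabp6 and Slc10a2 near background in every group. The part of gut region in the transporter results was not tested.

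**Figure D4:**
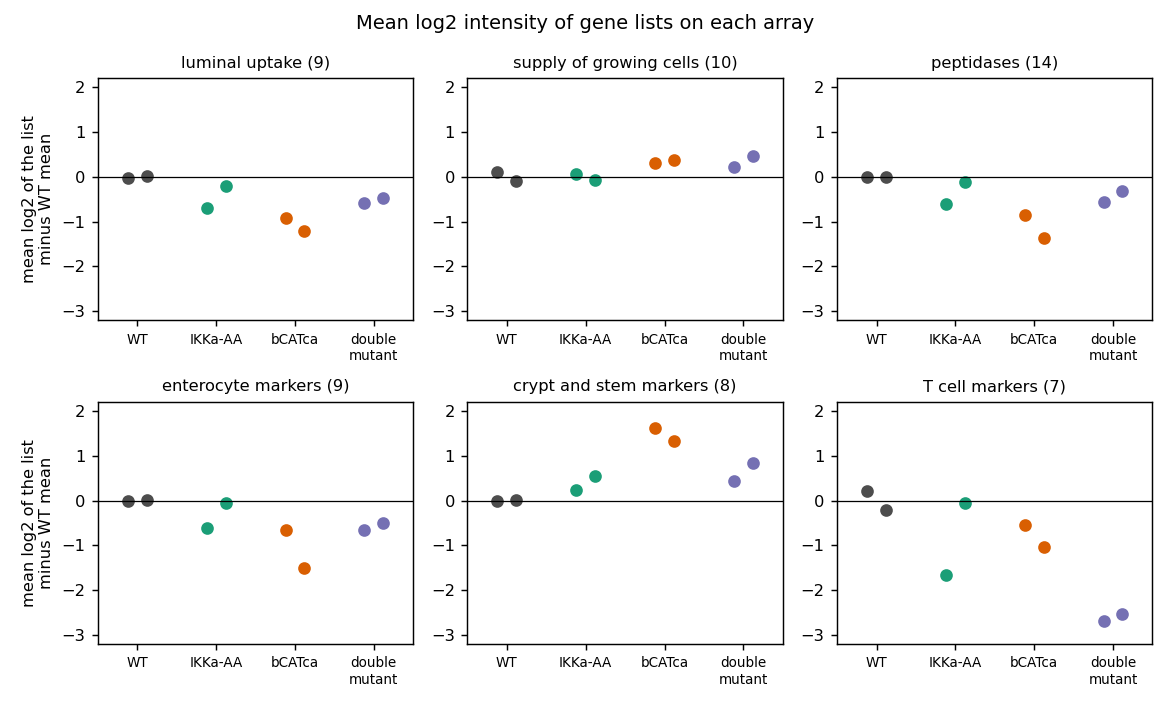
Mean log2 intensity of 6 gene lists on each array (points), minus the mean of the WT arrays, with the number of measured genes in parentheses and 2 arrays per group. Luminal uptake, peptidases and enterocyte markers have their lowest group mean in bCATca and crypt and stem markers their highest, and T cell markers are lowest in double mutants.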

How the data were processed

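RNA was labelled with biotin from 200 ng per sample, per the labels' protocols, and hybridised to Affymetrix arrays. The authors deposited 1 intensity per probe set and array on a linear scale. The submitters' processing notes name RMA and the affy package without a version. RMA works on a log scale, so the deposited intensities appear to have been returned to the linear scale, which is read from the values alone. Log2 was taken of every deposited intensity. The planned design had assumed log2 values. Median intensities lay between 50.9 and 53.8. Arrays have no sequencing depth, and precision is limited by their number.

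Of 22690 probe sets, 20380 had 1 gene symbol in the platform annotation, which left 12393 genes. The 55 members had 80 probe sets, and 14 members had more than 1. A linear model of group means over the 8 arrays was run in limma 3.58.1 (R 4.3.3, lmFit and eBayes, 4 residual and 4.28 prior degrees of freedom), and p-values were adjusted over all genes (Benjamini-Hochberg, 0.05). The code was tested on simulated data. The members and gene lists were chosen with earlier results of these data known. Genes were named by rule: members past the test (up to 12 each way per comparison, or the 3 with the smallest p), measured members of the luminal, basolateral and growth supply lists with 5 further carriers, and up to 4 called genes of each related list. Alternatives were quantile and cyclic loess scaling, an offset of 16, a mean log2 of at least 5, the mean of probe sets, all probe sets, an intensity trend with robust variances, the compared groups alone, replicate number as a block and each array left out. Leaving out both IKKa-AA arrays was added after seeing the data. The lone array of a group is then assumed to vary like the other groups. Background was judged from 10 readings of sex chromosome genes, 2.02 to 4.03. Motifs and promoters are from RefSeq (GRCm38.p6).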

Additional observations from a re-analysis of the deposited data

Results flagged for a closer look

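For 3 members the effect of stabilised β-catenin ran in opposite directions without and with the AA allele, every array of each altered group lying on the other side of its own control. The share of all genes that meet this rule was not counted, so the 3 cannot be set against it. The interaction did test this difference and did not pass for any of them. Slc1a3 was higher in bCATca than in WT by 1.06 and lower in double mutants than in IKKa-AA by 0.79, an interaction of -1.86 (adjusted p = 0.0537 by limma, 0.0266 without IKKa-AA replicate 2 and 0.215 without double mutant replicate 1). Slc16a8, a monocarboxylate carrier of the retinal pigment epithelium, had an interaction of 0.56 (adjusted p = 0.211), with levels between 4.56 and 4.95 on the 8 arrays. Slc16a4 had an interaction of 0.51 (adjusted p = 0.303), from changes of -0.44 in bCATca against WT and 0.07 in double mutants against IKKa-AA. It was near background in every group.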

How the results depend on the processing

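No result changed direction under any alternative run. Over 30 single-gene results, leaving out 1 array left 168 of 240 values on the same side of the threshold with 67 no longer past it and 5 newly past it, and the other alternatives did so for 261 of 281 with 17 and 3. With each array left out, members past the test ranged from 4 to 22 in bCATca against WT, 0 to 2 in IKKa-AA against WT, 0 to 3 in double mutants against WT, 0 to 5 in double mutants against bCATca and 0 to 5 in the interaction, and stayed at 0 in double mutants against IKKa-AA. In double mutants against WT the count of 1 became 0 with an offset of 16 and, as Slc6a20b was then not tested, 0 with a mean log2 of at least 5. It became 4 with the compared groups alone and 3 without both IKKa-AA arrays. In double mutants against bCATca the count of 2 became 0 with an offset of 16, 0 with a mean of at least 5 (Slc38a4 not tested), 1 over all probe sets, 1 with the replicate block, 4 with the compared groups alone and 5 without both IKKa-AA arrays. The interaction passed for 1 member over all probe sets (Slc38a4) and for 2 with an intensity trend and robust variances (Slc38a4 and Slc1a3). The cause of these shifts was not tested. Replicate numbers were not shown to pair samples: deviations of same-numbered arrays correlated between -0.4478 (IKKa-AA and bCATca) and 0.1502 (WT and IKKa-AA). With the replicate block 12 members passed in bCATca against WT, 0 in IKKa-AA against WT and 1 in double mutants against WT, and all genes past the test in bCATca against WT went from 1151 to 701. The small number of arrays per group and probes near background limit what can be detected for the 21 members that read near it.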
